A study of Mus musculus with 20 samples.

Results

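The TRBV12 and TRBV13 families are variable (V) gene families of the mouse T cell receptor (TCR) β locus. They were examined in CD8 T cells of mice that differ in the catalytic β5 subunits of the proteasome. The 5 genes TRBV12-1, TRBV12-2, TRBV13-1, TRBV13-2 and TRBV13-3 were taken by name from the first V gene listed for each in-frame TCRβ clone. They made up 5 of the 23 TRBV genes tested. They carried 87231 of the 258892 in-frame clones, and 83219 of the 250159 distinct clonotypes (33.3%). A clonotype is a unique combination of V gene, joining (J) gene and CDR3 amino acid sequence within a mouse.

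The mice were male and 9 to 12 weeks old. WT (C57BL/6) mice carry both β5i and β5t, β5i-KO mice lack β5i (Psmb8), and β5t-KO mice lack β5t (Psmb11), the subunit made in the cortical epithelium of the thymus. BIT mice carry the β5t coding sequence at the Psmb8 locus, so that β5t is made in place of β5i. Of the mice compared, 4 were WT, 5 lacked β5i, 4 lacked β5t and 4 were BIT. Not compared were replicate 5 of WT, replicate 5 of β5t-KO and replicate 3 of BIT, with 1, 11 and 401 clonotypes. β5t-KO replicate 2, with 384, was kept. Psmb8 and Psmb11 are not measured in TCR libraries, which leaves the genotypes as labelled. Replicates are separate mice.

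A TCR β chain is made by joining a V, a diversity (D) and a J segment, with bases trimmed from the segment ends and untemplated nucleotides added between them. The joint encodes CDR3, the loop that contacts the peptide in the groove of an MHC molecule, while the rest of the V gene encodes the CDR1 and CDR2 loops that mostly contact the MHC molecule itself. TRBV12 genes encode the Vβ5 chains and TRBV13 genes the Vβ8 chains of the older nomenclature. Well known transgenic receptors of CD8 T cells use these families, Vβ5 in OT-I and Vβ8 in P14.

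The 2 families lie interleaved on chromosome 6 of the GRCm38 (mm10) assembly, in the RefSeq annotation. TRBV12-1 (Tcrb-V5.2) occupies positions 41113567 to 41114067, TRBV13-1 (Tcrb-V8.3) 41116036 to 41116468, and TRBV12-2 (Tcrb-V5.1) 41118864 to 41119364. TRBV13-2 (Tcrb-V8.2) follows at 41121396 to 41121832 and TRBV13-3 (Tcrb-V8.1) at 41130147 to 41130585. Over their last 280 transcribed bases, TRBV12-1 and TRBV12-2 are 88.9% identical. The TRBV13 genes are 85.4% to 91.4% identical to each other, and members of different families share 48.5% to 53.0%. These figures come from GENCODE transcripts aligned end to end. Despite this likeness, 32 of the 87231 member clones (0.0367%) listed more than 1 V gene.

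The germline ends of the 5 genes are shown because they set the first residues of CDR3. Each line holds the last 29 bases of the gene's GENCODE vM39 transcript, 5′ to 3′, and capitals mark the bases that lie within CDR3.
TRBV12-1: ctgctatgtacttcTGTGCCAGCTCTCTC
TRBV12-2: ctgccgtgtacttcTGTGCCAGCTCTCTC
TRBV13-1: atctttgtacttcTGTGCCAGCAGTGATG
TRBV13-2: atcagtgtacttcTGTGCCAGCGGTGATG
TRBV13-3: agctgtatatttcTGTGCCAGCAGTGATG
Both TRBV12 genes contribute the same 15 bases, and the TRBV13 genes contribute 16. Within CDR3, TRBV13-2 is set apart from TRBV13-1 and TRBV13-3 by its codon for the residue after CAS. In the clones whose V end was listed as untrimmed, the capitalised bases were found exactly in 87.2% (TRBV12-2) to 95.1% (TRBV13-2).

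The CDR3 sequences followed these ends. Over the 17 mice, 96.3% ± 1.02 (SD, n = 17) of TRBV13-2 clonotypes opened with CASG, and 60.2% ± 3.70 (SD, n = 17) opened with CASGD. Among TRBV genes outside the 5, CASG opened 0.431% ± 0.0945 (SD, n = 17) of clonotypes. TRBV13-1 and TRBV13-3 clonotypes opened with CASSD in 51.0% ± 3.48 and 40.1% ± 4.17 of cases (SD, n = 17). TRBV12-1 and TRBV12-2 clonotypes opened with CASSL in 49.4% ± 4.71 and 52.3% ± 5.99, and with CASSP in 23.2% ± 2.29 and 20.1% ± 4.62 (SD, n = 17). That residue set TRBV13-2 apart in every library, with CASG in at least 93.8% of its clonotypes, while the openings of TRBV12-1 and TRBV12-2 were alike.

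Depth differed widely between the mice. The 17 libraries held 614169 to 2856711 TCRβ reads from 8119 to 146469 unique molecules, and 384 to 39542 distinct in-frame clonotypes. The 4 β5t-KO libraries held 384 to 6581 clonotypes, against 919 to 17570 in WT, 5350 to 39542 in β5i-KO and 13569 to 34508 in BIT mice. Shares of the rarer members in β5t-KO replicates 2 and 4 therefore rest on 12 to 20 clonotypes each for the TRBV12 genes.

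The first question was how often each gene was used. TRBV13-2 and TRBV13-3 were the 2nd and 3rd most used of the 23 TRBV genes, with means over 17 mice of 10.3% ± 0.727 and 10.3% ± 1.38 of clonotypes (SD, n = 17). TRBV13-1 held 4.60% ± 1.42, TRBV12-1 4.07% ± 1.86 and TRBV12-2 3.25% ± 1.46 (SD, n = 17). Within mice, TRBV13-2 exceeded TRBV13-3 in 10 of 17 and TRBV13-1 exceeded TRBV12-1 in 11 of 17, so that these neighbours had no steady order. TRBV13-3 exceeded TRBV13-1 in 17 of 17 mice, and TRBV12-1 exceeded TRBV12-2 in 16 of 17, by 0.818 ± 0.747 percentage points (SD, n = 17). The order was described after the values were seen and was not tested.

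TRBV12-1 made up 7.07%, 4.19%, 7.53% and 1.62% of clonotypes in WT replicates 1 to 4. In β5i-KO replicates 1 to 5 it made up 5.32%, 5.01%, 4.18%, 1.08% and 3.32%. The β5t-KO replicates 1 to 4 had 5.26%, 3.13%, 5.26% and 1.05%, and BIT replicates 1, 2, 4 and 5 had 5.08%, 4.11%, 3.02% and 2.96%. All 4 genotypes overlapped, and replicate 4 was the lowest within WT, within β5i-KO and within β5t-KO. The 95% Wilson intervals of these 3 low values, 1.44% to 1.81%, 0.891% to 1.30% and 0.682% to 1.62%, excluded every other mouse of their own genotype. Such intervals cover counting error only.

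TRBV12-2 made up 5.01%, 2.93%, 5.55% and 1.30% of clonotypes in WT replicates 1 to 4. The β5i-KO replicates 1 to 5 had 4.31%, 2.97%, 3.77%, 0.925% and 2.05%. The β5t-KO replicates 1 to 4 had 5.08%, 3.65%, 4.74% and 1.00%, and BIT replicates 1, 2, 4 and 5 had 4.24%, 2.90%, 2.61% and 2.24%. The same 3 mice as for TRBV12-1 were the lowest of their genotypes. Both genes together made up 2.00% to 13.1% of clonotypes. From lowest to highest mouse, TRBV12-1 spanned 7.16-fold and TRBV12-2 6.01-fold.

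The TRBV13 genes ranged less, and together made up 22.2% to 27.1%. TRBV13-1 spanned 2.62-fold, from 2.69% in β5i-KO replicate 4 to 7.06% in β5i-KO replicate 1. TRBV13-3 spanned 1.69-fold, from 8.31% in WT replicate 3 to 14.1% in β5t-KO replicate 4. TRBV13-2 stayed between 9.35% and 11.6%, a 1.24-fold range. Its coefficient of variation of 7.02% was the smallest of the 23 TRBV genes tested. TRBV12-1, TRBV12-2 and TRBV13-1 had the 2nd, 3rd and 4th largest gene-wise dispersion around the genotype means in edgeR, and TRBV13-2 the smallest.

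**Figure D1:**
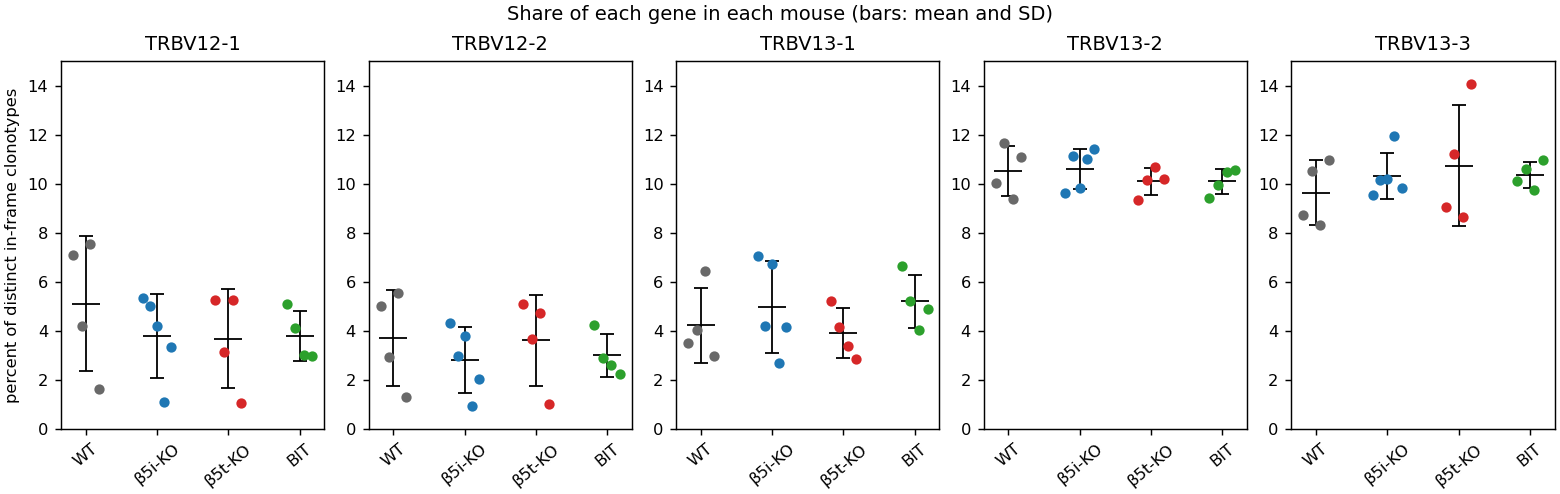
Percent of distinct in-frame clonotypes (y axis, from 0) carrying each of the 5 genes, with 1 point per mouse, grouped by genotype, and bars for mean and SD. TRBV12-1 runs from 1.05% to 7.53% and overlaps between all genotypes, while TRBV13-2 stays between 9.35% and 11.6%.

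None of the 5 genes passed the test for a difference in usage between genotypes. TRBV12-1 held 5.10% ± 2.76 in WT (SD, n = 4), and the β5i-KO group had 3.78% ± 1.70 (SD, n = 5). It held 3.67% ± 2.02 in the β5t-KO group and 3.79% ± 1.01 in the BIT group (SD, n = 4 each). TRBV13-2 held 10.5% ± 1.02, 10.6% ± 0.813, 10.1% ± 0.552 and 10.1% ± 0.522 across the groups in that order. By edgeR's quasi-likelihood test 0 of the 5 genes passed an adjusted p of 0.05 in any of the 6 pairwise comparisons, and 0 had an unadjusted p below 0.05. The share of all tested TRBV genes that passed was 4.35% in the comparison of β5t-KO with β5i-KO mice and 0% in the other 5. DESeq2 and edgeR with TMM normalisation also called 0 of the 5.

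The precision of this result differed by gene. For β5t-KO against WT, the log2 fold change in the share of clonotypes was -0.38 for TRBV12-1 (95% interval -1.52 to 0.76, adjusted p 0.869, edgeR). It was 0.04 for TRBV12-2 (-1.08 to 1.16, adjusted p 0.972) and -0.06 for TRBV13-2 (-0.25 to 0.12, adjusted p 0.869). For BIT against WT, the interval was -1.49 to 0.70 for TRBV12-1 and -0.24 to 0.12 for TRBV13-2. The intervals of both TRBV12 genes thus reached beyond 1 log2 unit in at least one direction in all 6 comparisons, while those of TRBV13-2 stayed within 0.25 of 0 in all 6 comparisons. These intervals were derived from the fold change and the F statistic. For TRBV13-2 in BIT and in β5t-KO against β5i-KO mice, the unadjusted p (0.888 and 0.948, edgeR) was larger than the interval implies. Its intervals may thus be too narrow.

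Both TRBV12 genes varied together across mice. On the log2 scale, the shares of TRBV12-1 and TRBV12-2 had a Pearson r of 0.956 and a Spearman rho of 0.936 over 17 mice (permutation test, adjusted p 5e-05 and 1e-04 over the 10 pairs of members). Without the 2 mice farthest from the median of TRBV12-1, r was 0.904, and after subtracting the genotype means it was 0.978. TRBV13-1, which lies between the TRBV12 genes, had r of 0.671 with TRBV12-1 (rho 0.544, permutation test, adjusted p 0.00596 and 0.0374), and 0.444 without those 2 mice. TRBV13-3 ran opposite to TRBV12-1, with r of -0.864 (rho -0.863, permutation test, adjusted p 5e-05 and 0.00015), and -0.749 without the 2 mice. TRBV13-2 and TRBV12-1 had r of -0.431 (rho -0.493, permutation test, adjusted p 0.0939 and 0.0593), which did not pass, and r was -0.521 without the 2 mice. TRBV13-2 did pass with TRBV12-2, at r of -0.566 (rho -0.632, permutation test, adjusted p 0.0257 and 0.0150), and with TRBV13-1, at r of -0.666 (rho -0.647, permutation test, adjusted p 0.00683 and 0.0149). Without the 2 mice farthest from the median of the other gene of the pair, r was -0.688 and -0.615. Shares of 1 library sum to a fixed total, so that these relations are not independent of each other.

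**Figure D2:**
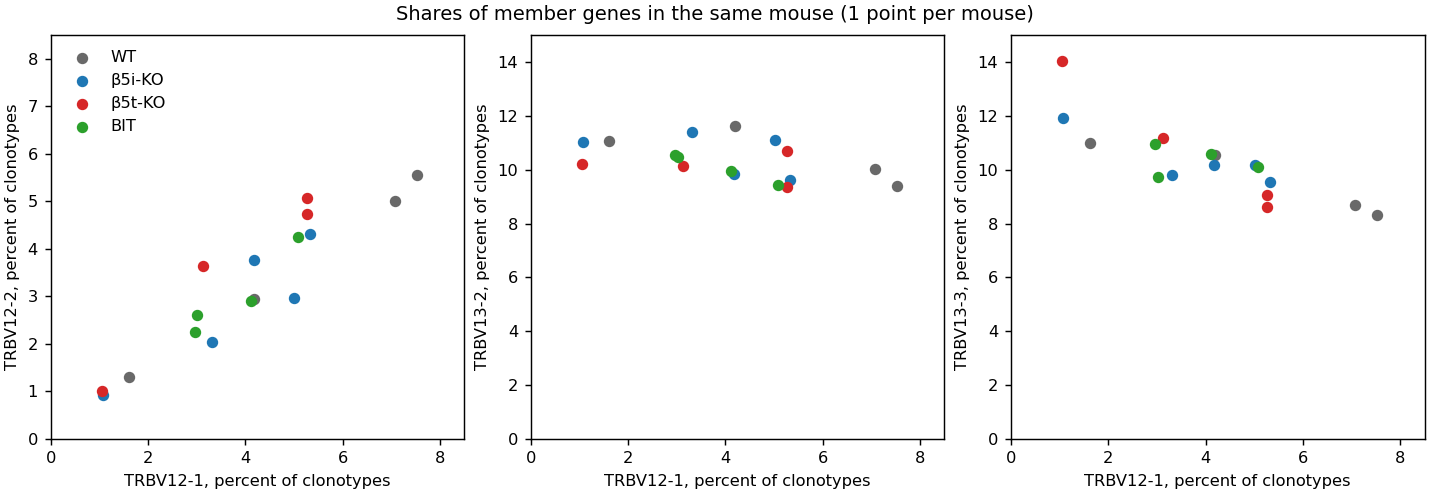
Share of TRBV12-2, TRBV13-2 and TRBV13-3 (y axes, percent of clonotypes) against that of TRBV12-1 (x axis, percent of clonotypes), with 1 point per mouse coloured by genotype. TRBV12-2 lies along a line with TRBV12-1 (Pearson r 0.956 of log2 shares), TRBV13-3 runs opposite (r -0.864), and the genotypes are intermixed.

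Outside the families, the gene most like each member in log2 share over the 17 mice was TRBV20 for TRBV12-1 (r 0.719), TRBV1 for TRBV12-2 (0.743), TRBV5 for TRBV13-1 (0.866), TRBV4 for TRBV13-2 (0.672) and TRBV16 for TRBV13-3 (0.723). TRBV16 was also the gene most opposite to TRBV12-1, with r of -0.911. It was singled out after its values were seen. The number of clonotypes in the library had little relation to either TRBV12 gene, with Pearson r of 0.0657 and rho of 0.0441 for TRBV12-1 (permutation test, adjusted p 0.844 and 0.901 over 23 genes; r 0.293 without the 2 farthest libraries). TRBV13-1 had r of 0.507 and rho of 0.522 with it (permutation test, adjusted p 0.122 and 0.177), which did not pass, and r of 0.633 without the 2 farthest libraries.

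The deposited tables also hold non-productive joins, whose CDR3 contains a frame shift or a stop codon. A cell with such a join depends on a productive join of its other allele, so that these joins are not selected for the chain they encode. The 16 mice with at least 30 such clonotypes had 34 to 1317. TRBV13-2 held 5.44% ± 2.43 of non-productive and 10.4% ± 0.749 of in-frame clonotypes in these mice (SD, n = 16), and was higher in frame in 15 of 16 mice. TRBV13-3 held 5.10% ± 2.81 and 10.2% ± 1.41 (SD, n = 16), again higher in frame in 15 of 16. Both differences passed a two-sided permutation test by sign flips (adjusted p 0.000253 each), with ratios of means of 1.91 and 2.00.

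TRBV12-2 was also higher in frame, with 3.23% ± 1.50 against 2.17% ± 0.645 (SD, n = 16), in 12 of 16 mice (permutation test, adjusted p 0.0214). TRBV12-1 held 4.13% ± 1.90 in frame and 5.21% ± 2.36 among non-productive joins (permutation test, adjusted p 0.118, higher in frame in 7 of 16 mice). TRBV13-1 held 4.63% ± 1.46 and 5.35% ± 1.67 (permutation test, adjusted p 0.297, higher in 9 of 16). So 3 of the 5 passed, all higher in frame, against 43.5% of the 23 genes that passed in that direction. Shares of each set sum to a fixed total, so that a member's ratio also depends on the other genes. Among non-productive and in-frame clonotypes TRBV31 held 14.1% and 2.69%, and TRBV24 9.42% and 0.0875%. TRBV4 held 11.1% and 6.13%, and TRBV5 4.08% and 1.00%. How far these genes moved the ratios of the members was not tested. In β5t-KO replicate 4 the non-productive shares of TRBV13-2 and TRBV13-3, 11.4% and 14.9%, were close to its in-frame shares of 10.2% and 14.1%.

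In 2 of the 3 mice with the lowest in-frame TRBV12-1, the gene was not scarce among non-productive joins. WT replicate 4 had TRBV12-1 in 30 of 561 non-productive clonotypes (5.35%, 95% Wilson interval 3.77% to 7.53%), against 1.62% in frame. β5i-KO replicate 4 had it in 18 of 246 (7.32%, 4.68% to 11.3%), against 1.08% in frame. In β5t-KO replicate 4 it was found in 1 of 114 (0.877%, 0.155% to 4.80%), against 1.05% in frame. WT replicate 3, the mouse with the highest in-frame share (7.53%), had 18 of 404 non-productive clonotypes (4.46%, 2.84% to 6.93%).

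**Figure D3:**
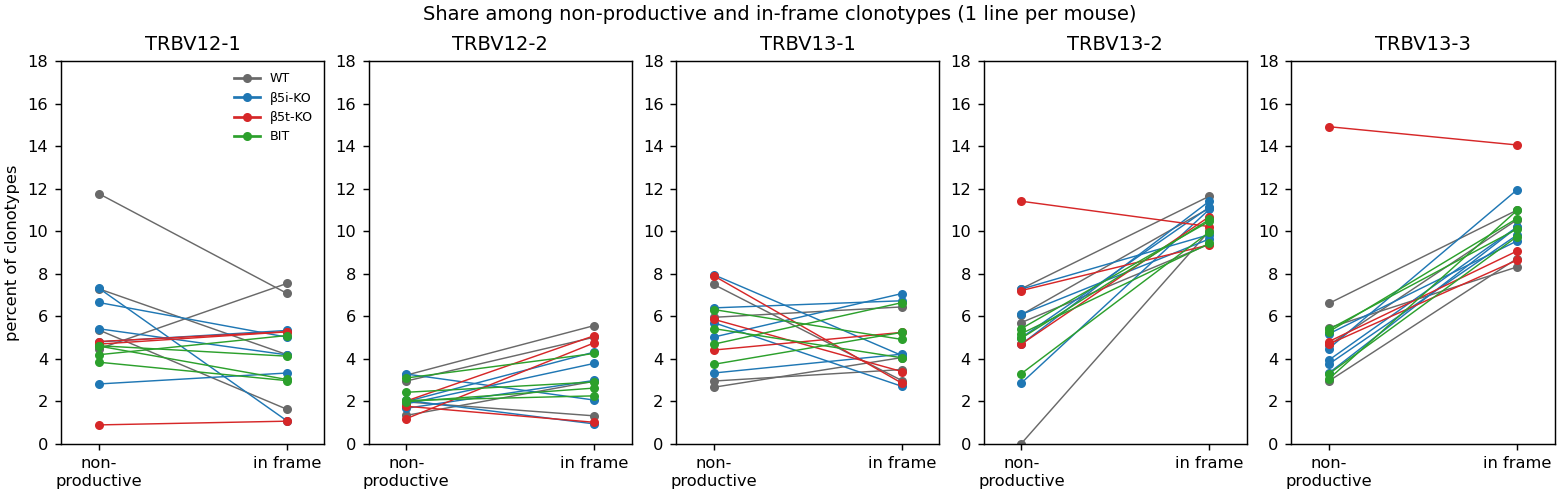
Share of each gene among non-productive and in-frame clonotypes (y axis, percent of clonotypes), with 1 line per mouse coloured by genotype, in the 16 mice with at least 30 non-productive clonotypes. TRBV13-2 and TRBV13-3 are higher in frame in 15 of 16 mice, while lines for TRBV12-1 go both ways.

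The members were next set against all other TRBV clonotypes of the same mouse. In these within-mouse comparisons most TRBV genes differ from the rest. The share of 22 genes that passed a two-sided sign-flip permutation test was 68.2% for CDR3 length, 72.7% for the share joined to TRBJ2, 50.0% for added nucleotides and 90.9% for molecules per clonotype.

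TRBV13-3 had the shortest CDR3 of the 5. Its mean length was 13.6 residues against 13.9 for the other genes, a difference of -0.302 ± 0.0735 (SD, n = 17), and it was shorter in 17 of 17 mice (permutation test, adjusted p 7.3e-05). The other 4 members did not pass, with differences from -0.103 for TRBV13-1 to 0.0460 for TRBV13-2 (permutation test, adjusted p 0.185 to 0.440). Clonotypes of 12 or fewer residues made up 23.2% ± 2.91 of TRBV13-3 and 16.03% ± 1.27 of the genes outside the 5 (SD, n = 17).

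The members differed in J cluster, the TRBJ1 or TRBJ2 genes to which they were joined, with TRBV13-1 on the side of the TRBV12 genes. TRBJ2 was used by 79.2% of TRBV12-2 clonotypes, 8.62 ± 6.26 percentage points above the other genes (SD, n = 17; higher in 16 of 17 mice). TRBV13-1 lay 5.45 ± 6.37 points above (15 of 17) and TRBV12-1 4.81 ± 3.84 points above (15 of 17). TRBV13-3 lay 4.13 ± 1.75 points below the others in 17 of 17 mice, and TRBV13-2 1.45 ± 1.92 points below in 15 of 17. All 5 passed the permutation test, with adjusted p of 0.000147 to 0.00838. TRBJ2-7 was the J gene most often joined to each member, at 21.5% to 26.4% of clonotypes, as it was for the genes outside the 5 (21.9% ± 1.25, SD, n = 17).

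Added nucleotides are the CDR3 bases that the deposited alignments assign to no segment. TRBV12-2 had 2.65 per clonotype, 0.348 ± 0.316 fewer than the other genes (SD, n = 17; fewer in 15 of 17 mice). TRBV12-1, TRBV13-2 and TRBV13-3 had 0.171, 0.166 and 0.115 fewer, and these 4 genes passed the permutation test (adjusted p 0.00154 to 0.00328). TRBV13-1 did not (-0.0785, permutation test, adjusted p 0.531). The measure depends on where the alignment ends the V gene. In 12.2% of TRBV12-1 and 12.9% of TRBV12-2 clones, against 4.65% of clones of genes outside the 5, the stretch assigned to V held a base that the germline end does not. With the V end set back to the last matching base, 1 of the 5 passed, TRBV13-2 (-0.144, permutation test, adjusted p 0.00302).

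Clonotypes of TRBV13-1, TRBV12-1 and TRBV13-3 were each captured in more molecules than those of the other genes of the same mouse. The differences in the log2 of mean molecules per clonotype were 0.37 ± 0.20 (17 of 17 mice), 0.30 ± 0.15 (16 of 17) and 0.27 ± 0.12 (17 of 17; SD, n = 17). TRBV12-2, despite its likeness in sequence to TRBV12-1, lay 0.15 ± 0.09 below the others in 16 of 17 mice. TRBV13-2 lay 0.07 ± 0.13 above, which did not pass when clonotypes were defined by nucleotide CDR3 (0.04, permutation test, adjusted p 0.146). All 5 passed the permutation test (adjusted p 0.00011 to 0.0390). Amounts of RNA per cell, numbers of cells per clone and efficiency of amplification cannot be told apart in this measure.

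**Figure D4:**
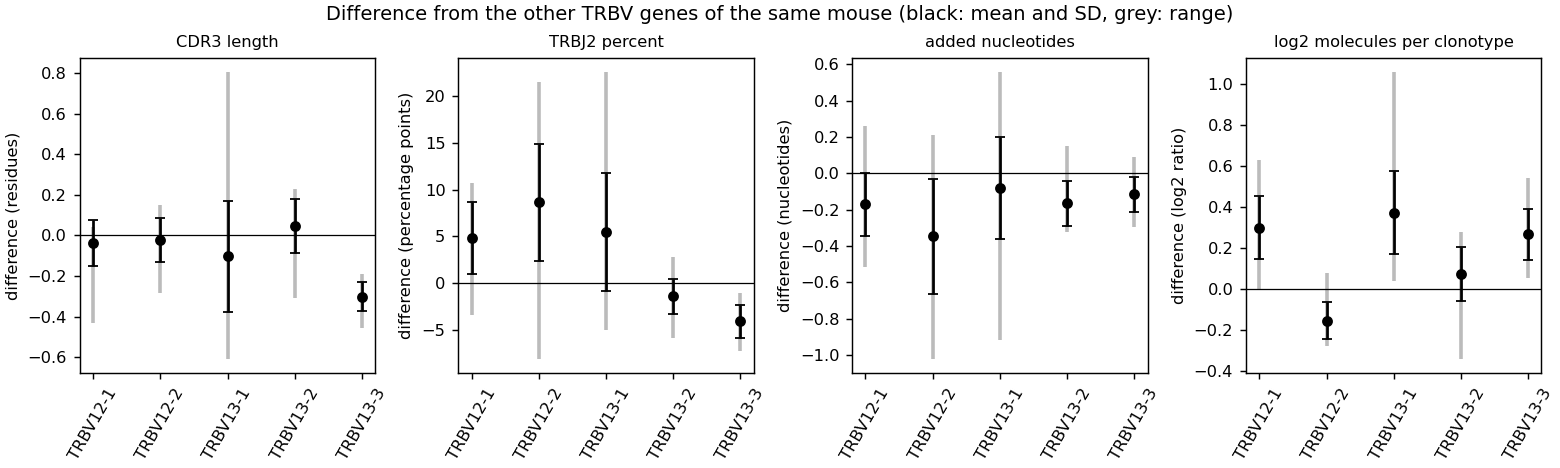
Difference between each member and the other TRBV genes of the same mouse in CDR3 length (residues), TRBJ2 share (percentage points), added nucleotides and log2 molecules per clonotype, with black points and bars for mean and SD over 17 mice and grey lines for the range. TRBV13-3 lies below 0 in length and TRBJ2 share in 17 of 17 mice, and TRBV12-2 lies apart from TRBV12-1 in molecules per clonotype.

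Junctions of the members were then compared between genotypes. TRBV13-2 had shorter CDR3 in β5t-KO mice. Its mean length was 14.08, 13.89, 13.96 and 13.99 residues in WT replicates 1 to 4, and 14.06, 13.98, 14.06, 14.01 and 13.98 in β5i-KO replicates 1 to 5. In β5t-KO replicates 1 to 4 it was 13.87, 13.79, 13.76 and 13.68, and in BIT replicates 1, 2, 4 and 5 it was 13.98, 13.85, 13.96 and 14.04. The β5t-KO mice did not overlap with the WT or β5i-KO mice, and overlapped with 1 BIT mouse.

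The difference of β5t-KO from WT mice was -0.205 ± 0.0600 residues (SE, limma, adjusted p 0.0210), and from β5i-KO mice -0.245 ± 0.0569 (SE, limma, adjusted p 0.00699). BIT mice exceeded β5t-KO mice by 0.182 ± 0.0600 (SE, limma, adjusted p 0.0750), which did not pass. Clonotypes of 12 or fewer residues made up 20.9% ± 2.75 of TRBV13-2 in the β5t-KO group and 16.8% ± 1.40 in WT (SD, n = 4 each). The β5i-KO group had 17.7% ± 1.25 (SD, n = 5) and the BIT group 18.1% ± 1.67 (SD, n = 4). Clonotypes of 16 or more residues made up 12.7% ± 1.73 in β5t-KO and 15.5% ± 4.51 in WT, with 15.5% ± 0.345 in β5i-KO and 15.2% ± 1.46 in BIT. The difference from WT mice did not pass without WT replicate 3 (limma, adjusted p 0.0622) or after every library was thinned to 7669 molecules (-0.176, limma, adjusted p 0.110). The difference from β5i-KO mice passed with each mouse left out and after thinning.

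TRBV13-1 had longer CDR3 in β5t-KO than in WT mice, by 0.457 ± 0.153 residues (SE, limma, adjusted p 0.0407). Its mean length was 13.86, 14.69, 13.69 and 13.98 in β5t-KO replicates 1 to 4 and 13.28, 13.53, 13.71 and 13.87 in WT replicates 1 to 4, so that the groups overlapped. β5t-KO replicate 2, the highest, held 16 TRBV13-1 clonotypes, and WT replicate 1, the lowest, held 32. Without these 2 libraries, the only ones under 1000 clonotypes, the difference was 0.141 ± 0.0792 (SE, limma, adjusted p 0.222).

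In all, 2 of the 5 genes passed for length between β5t-KO and WT mice, against 19% of the 21 genes tested, and 1 of 5 between β5t-KO and β5i-KO mice, against 14.3%. The median difference of all 21 genes was -0.0514 and -0.0508 residues in these 2 comparisons, with 8 and 5 genes at an unadjusted p below 0.05 by limma. Against WT mice, TRBV12-1 and TRBV12-2 were also lower (-0.121 and -0.109, neither passed), while TRBV13-3 was higher (0.0529, not passed), as was TRBV13-1. With replicate number as a block, 1 in place of 2 passed between β5t-KO and WT mice. The other 4 comparisons called 0 of the 5 by limma, with 1 gene (TRBV13-2) at an unadjusted p below 0.05 between BIT and β5t-KO mice, where 4.76% of the 21 genes passed, and 0 genes in the rest, where 0% passed.

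TRBV12-2 had fewer added nucleotides in β5t-KO than in β5i-KO mice. The mean was 2.84, 3.24, 2.82, 3.14 and 2.86 in β5i-KO replicates 1 to 5, and 2.30, 1.93, 2.52 and 2.00 in β5t-KO replicates 1 to 4. WT replicates 1 to 4 had 2.50, 2.73, 2.73 and 2.67, and BIT replicates 1, 2, 4 and 5 had 2.67, 2.47, 2.89 and 2.70. All β5t-KO mice lay below all β5i-KO mice, and 1 of them lay within the range of the WT and BIT mice. β5t-KO replicates 2 and 4, the lowest, held 14 and 19 TRBV12-2 clonotypes.

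The difference of TRBV12-2 between β5t-KO and β5i-KO mice was -0.793 ± 0.131 nucleotides (SE, limma, adjusted p 0.000154), and it passed with each mouse left out. The median difference of all 21 genes tested was -0.163 in this comparison, and 6 of them had an unadjusted p below 0.05 by limma. The other members ranged from -0.00949 (TRBV13-1) to -0.200 (TRBV13-2). Lower values in β5t-KO mice were thus not particular to TRBV12-2. Its difference was smaller with each value weighted by its number of clonotypes (-0.473 ± 0.109, SE, limma, adjusted p 0.000241). It was -0.597 ± 0.142 with the V end set back to the last matching base (SE, limma, adjusted p 0.0101). BIT mice exceeded β5t-KO mice by 0.494 ± 0.138 (SE, limma, adjusted p 0.0409). That call was lost without β5t-KO replicate 2 (0.408, limma, adjusted p 0.0584) and without BIT replicates 1, 4 or 5 (0.498, 0.424 and 0.488, limma, adjusted p 0.0684, 0.109 and 0.112). The call was also lost with at least 30 clonotypes per value, with weighting by molecules and in libraries of at least 1000 clonotypes. Thinning, the V end set back and a block for replicate number each removed it too. With weighting by clonotypes, 2 members passed. The difference of β5t-KO from WT mice, -0.470 ± 0.138 (SE, limma, adjusted p 0.0605), did not pass. β5i-KO mice had the highest mean of the genotypes. They exceeded WT mice by 0.323 ± 0.131 (SE, limma, unadjusted p 0.0229, adjusted p 0.480). BIT mice differed from them by -0.299 ± 0.131 (SE, limma, unadjusted p 0.0334, adjusted p 0.701). Neither passed. In these comparisons 1 of the 5 genes passed for BIT against β5t-KO and for β5t-KO against β5i-KO mice, against 4.76% of the 21 genes tested in each. The other 4 comparisons called 0 of the 5 by limma, with 0 or 1 gene at an unadjusted p below 0.05, and 0% of the 21 genes passed.

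**Figure D5:**
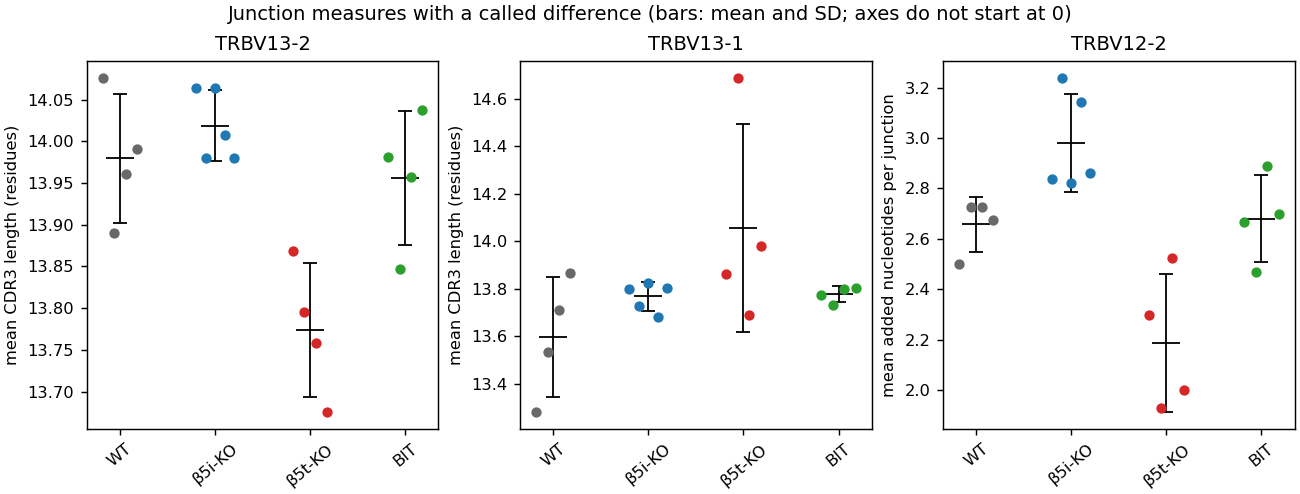
Mean CDR3 length of TRBV13-2 and of TRBV13-1 clonotypes (residues) and mean added nucleotides of TRBV12-2 clonotypes by genotype, with 1 point per mouse and bars for mean and SD (axes do not start at 0). TRBV13-2 lengths of the β5t-KO mice (13.68 to 13.87) lie below those of the WT mice (13.89 to 14.08), and β5t-KO mice lie below β5i-KO mice for TRBV12-2.

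The TRBJ2 share and the molecules per clonotype of the members did not pass limma's test between genotypes for any of the 5 genes. At an unadjusted p below 0.05 there was 1 gene for each measure, for β5t-KO against β5i-KO mice and for β5i-KO against WT mice. Of the 21 genes tested, 0% passed for TRBJ2 share in each comparison, and for molecules per clonotype 4.76% passed between BIT and β5t-KO and between β5t-KO and β5i-KO mice and 0% in the others. By edgeR without a block for replicate number, 0 of 60 V-J pairs with a member gene passed between genotypes. At an unadjusted p below 0.05 there were 0 to 4 member pairs per comparison, and DESeq2 called 0. Of all 248 pairs tested, 0.806% passed between β5t-KO and β5i-KO mice and 0% in the other comparisons. With replicate number as a block, some member pairs passed for BIT against β5t-KO and for β5t-KO against β5i-KO mice.

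The clonotype of each member found in the most mice is shown to give examples of shared receptors. The CDR3 nucleotide sequence is the one found in the most mice, with capitals for the bases that the deposited alignment assigns to the V gene. In the order of the list, these nucleotide sequences were found in 4, 3, 5, 9 and 11 mice, each fewer than held the amino acid clonotype.
TRBV12-1 with TRBJ1-2, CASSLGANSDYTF: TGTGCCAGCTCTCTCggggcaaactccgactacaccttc
TRBV12-2 with TRBJ2-7, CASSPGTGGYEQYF: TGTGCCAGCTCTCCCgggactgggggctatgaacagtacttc
TRBV13-1 with TRBJ2-7, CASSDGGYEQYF: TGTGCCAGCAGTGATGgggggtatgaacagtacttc
TRBV13-2 with TRBJ2-7, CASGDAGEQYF: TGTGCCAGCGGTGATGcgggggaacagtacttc
TRBV13-3 with TRBJ2-7, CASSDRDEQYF: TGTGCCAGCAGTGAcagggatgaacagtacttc
The TRBV12-2 sequence differs from the germline end of its gene by T14C, counted from the first base of CDR3, which lies inside the stretch assigned to V. The other 4 match the germline end over their capitals.

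These clonotypes were found in 10, 9, 8, 14 and 13 of the 17 mice in the order of the list. The TRBV13-2 clonotype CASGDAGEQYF was present in 3 of 4 WT, 5 of 5 β5i-KO, 2 of 4 β5t-KO and 4 of 4 BIT mice, at a median of 222 and at most 702 CPM (read counts scaled by library total). The TRBV13-1 clonotype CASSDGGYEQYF was present in 2 of 4 WT, 2 of 5 β5i-KO and 4 of 4 BIT mice. Every library with it held at least 13569 clonotypes, and every library without it held at most 9951. Its presence thus followed depth, and genotype cannot be told apart from depth here. It was not found among 113931 in-frame molecules pooled over the 4 β5t-KO mice. A limit of 3 molecules in that pool is 26.3 CPM of molecules, which treats the 4 mice as a single sample. Each of these mice held 7669 to 43803 in-frame molecules, so that the limit for any single mouse is higher. TRBV12-1 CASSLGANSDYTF reached 3756 CPM in β5t-KO replicate 2, the library with the fewest clonotypes, and was at most 246 CPM in the other 16 mice. The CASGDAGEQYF clonotype was encoded by 15 nucleotide sequences over the 17 mice, and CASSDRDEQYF by 5.

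Of 68762 different clonotypes of the members, 38 were found in at least 10 mice. TRBV13-2 had 28 of these, TRBV13-3 had 9 and TRBV12-1 had 1. Of 144816 different clonotypes of the other TRBV genes, 27 were found in at least 10 mice. Sharing depends on how many clonotypes a gene has and how deeply each library was read. TRBV13-2 and TRBV13-3 had similar totals, 19897 and 20927 different clonotypes over all mice, of which 85.6% and 87.3% were found in a single mouse. The shares found in a single mouse were 88.2% for TRBV12-1, 88.7% for TRBV12-2 and 89.7% for TRBV13-1.

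Clonotypes at 10 CPM or more in at least 3 mice of a genotype numbered 1376, and 598 of them used a member gene, led by 269 with TRBV13-2 and 181 with TRBV13-3. Members made up 31 of 60 such clonotypes in WT, 315 of 658 in β5i-KO, 9 of 22 in β5t-KO and 354 of 851 in BIT mice. A clonotype that enters through 1 genotype alone was chosen for being frequent there, which biases its tests toward a difference. The tests on this set are therefore no evidence about the members. By edgeR 0 of the 598 passed in each of the 6 comparisons, where 0% of the 1376 passed. Unadjusted p was below 0.05 for 136 (BIT against β5i-KO) to 347 (BIT against β5t-KO) of the 598. DESeq2 called 107 of the 598 for β5i-KO against WT (17.2% of the 1376), 223 for β5t-KO against WT (35.3%) and 99 for BIT against WT (16.1%). It called 32 for BIT against β5i-KO (6.54%), 272 for BIT against β5t-KO (43.8%) and 280 for β5t-KO against β5i-KO (44.7%). With TMM normalisation edgeR called 359 of the 598 between BIT and β5t-KO mice (62.1% of the 1376), 335 between β5t-KO and β5i-KO mice (56.8%), and 0 in the other 4 comparisons.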

How the data were processed

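TCR libraries of sorted CD8 T cells (TCRβ high, CD4-, CD8+, from lymph nodes and spleens per the study's protocol, lymph nodes per the labels) were made with a kit whose reads carry molecular identifiers. Clones were assembled by the authors with MiXCR. Version and settings are not given in the sources used here, and the submitters' processing notes name mm10. For every clone the deposited tables hold counts of reads and of distinct molecules, not normalised. The deposited fraction columns, made by the authors by dividing these counts by the library total, were not used. TCRα tables were not used.

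The members and lists were chosen with earlier results of these data known. In-frame clones had no frame shift or stop codon in CDR3, and a clone listing several V genes was given to the first. Each clonotype counted once. Usage, V-J pairs (kept where 4 libraries or more had 5 clonotypes) and reads of recurring clonotypes were tested with edgeR 4.0.16 (quasi-likelihood, library size normalisation) in R 4.3.3, all 4 genotypes in one fit. CDR3 length, TRBJ2 odds (pseudocount 0.5), added nucleotides and relative molecules per clonotype used limma 3.58.1 on values with at least 10 clonotypes. Within-mouse differences were tested by sign flips (100000 resamples, smallest p 1e-05). All p-values were adjusted by Benjamini-Hochberg over every gene, pair or clonotype tested, with a threshold of 0.05. The scripts were tested on simulated data. The precision of a share is limited by 384 to 39542 clonotypes per library.

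Named were the 5 genes, any V-J pairs or clonotypes of theirs called by edgeR, the clonotype of each found in most mice, and the most similar other gene. Alternatives were DESeq2 1.42.0, TMM, other filters, reads or molecules in place of clonotypes, nucleotide CDR3, single V hits, V subgroups, thinning, only the groups compared, BIT replicate 3 included, leaving out each mouse, and a block for replicate number. Python 3.11.15, NumPy 2.4.6, pandas 2.3.3, SciPy 1.17.1, Biopython 1.88 and Matplotlib 3.10.9 were used.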

Additional observations from a re-analysis of the deposited data

Results flagged for a closer look

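A set of values here is 1 gene and 1 measure in the 4 or 5 mice of a genotype. Of 100 such sets examined, 4 held a mouse far from the others of its genotype. Chance alone flags about 1 in 20 sets (5%), but the sets come from the same mice and are not independent. BIT replicate 1 had 4.88 molecules per TRBV12-1 clonotype, against 3.18 to 3.41 in the other BIT mice. The same mouse had 3.55 molecules per TRBV12-2 clonotype, against 2.64 to 2.74. Its whole library held 4.15 in-frame molecules per clonotype, against 2.83 to 3.13 in the other BIT mice, and it was also the highest BIT mouse for TRBV13-1, TRBV13-2 and TRBV13-3 (5.28, 4.52 and 4.98). It also had the lowest TRBJ2 share of TRBV12-1 clonotypes, 74.2% against 77.0% to 77.2%. TRBV13-3 made up 11.9% of clonotypes in β5i-KO replicate 4, against 9.53% to 10.2% in the other β5i-KO mice.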

How the results depend on the processing

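Usage of the 5 genes gave 0 calls under every alternative run, and no called value of a member changed direction. With 298 counts of called members recomputed under settings other than leaving out a mouse, 267 stayed equal or within 1.5 times. These include counts of 0 that stayed 0, and most counts of the main fits between genotypes were 0. For recurring clonotypes (0 called by edgeR), DESeq2 called 107 (β5i-KO against WT), 223 (β5t-KO against WT), 99 (BIT against WT), 32 (BIT against β5i-KO), 272 (BIT against β5t-KO) and 280 (β5t-KO against β5i-KO), and TMM 359 and 335 in the last 2. There the median log2 difference of all 1376 clonotypes between BIT and β5t-KO mice was 7.63, 9.80 with TMM and 9.22 with DESeq2. For CDR3 length of β5t-KO against WT mice, 2 members passed, and 1 when weighted by clonotypes or by molecules, with at least 30 clonotypes, or in libraries of at least 1000 clonotypes, and 0 after thinning. BIT against β5t-KO gave 0, and 1 when weighted by clonotypes, with at least 30, or in libraries of at least 1000. β5t-KO against β5i-KO gave 1, and 2 when weighted by clonotypes. For added nucleotides, weighting by clonotypes gave 1 in place of 0 (β5i-KO against WT), 2 in place of 1 (BIT against β5t-KO) and 3 in place of 1 (β5t-KO against β5i-KO, and 2 in libraries of at least 1000). BIT against β5t-KO gave 0 with at least 30 clonotypes, by molecules, in libraries of at least 1000, after thinning and with the V end set back. The within-mouse count of added nucleotides went from 4 to 1 with the V end set back. The 1000-clonotype limit, the thinning of the 4 junction and molecule measures and the V end were chosen after seeing the data. The cause of these differences was not tested.

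Leaving out each mouse moved the number of members called for CDR3 length to 0 to 3 (β5t-KO against WT) and 0 to 1 (BIT against β5t-KO). For added nucleotides it ranged from 0 to 1 (β5t-KO against WT and BIT against β5t-KO) and 1 to 2 (β5t-KO against β5i-KO), and for molecules per clonotype from 0 to 1 (BIT against β5t-KO).

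The groups share replicate numbers, but nothing in the labels pairs the mice. The study's legend for its counts of TCRα sequences mentions several independent measurements, as many as there are replicate numbers. Whether same-numbered mice were measured together is not stated, and the main fits and permutation tests treated the mice as independent. Deviations from group means had a correlation over 0.1 in 18 of 22 same-numbered pairs (-0.316 to 0.923, median 0.397, against -0.219 for other pairs), and 9 of 17 mice correlated best with a mouse of their own number. With the replicate number as a block, 4 member V-J pairs passed for BIT against β5t-KO and 2 for β5t-KO against β5i-KO, in place of 0. With the block, 1 in place of 2 members passed for CDR3 length (β5t-KO against WT) and 0 in place of 1 for added nucleotides (BIT against β5t-KO).

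Depth limits the TRBV12 genes most, with 12 to 20 clonotypes each in β5t-KO replicates 2 and 4.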

Other observations

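BIT replicate 3, which was left out of the comparisons, held 401 clonotypes. TRBV12-1 made up 9.23% of them (95% Wilson interval 6.77% to 12.5%), above each of the 17 mice compared, though the interval includes the highest of those, 7.53%. TRBV12-2 made up 4.24%, TRBV13-1 6.48%, TRBV13-2 10.2% and TRBV13-3 7.23%. β5t-KO replicate 5 held 11 clonotypes, 2 of them with a member gene, and WT replicate 5 held 1 clonotype, with none.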
